A study of Mus musculus with 60 samples.

Results

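The imprinted genes examined here were 40 mouse genes of 15 clusters, each expressed mainly or only from the copy inherited from one parent in at least some tissue. They were chosen by name from known imprinted clusters, with earlier results of these data known. A peak was counted for a member if the deposited table assigned that peak to its symbol. At least 1 peak was assigned to 33 of the 40 genes, among 16994 genes with a symbol in any list, and 467 of 256375 peaks were theirs. The values came from CUT&RUN-seq, in which an antibody directs a nuclease to a histone mark inside intact nuclei and the released DNA is sequenced. H4K8ac, acetylation of lysine 8 of histone H4, is a mark of active promoters and enhancers, and H3K27me3, trimethylation of lysine 27 of histone H3, is the mark set by Polycomb repressive complex 2.

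All animals were male Emx1-NuTRAP mice, which carry Emx1-IRES-Cre and the Cre-dependent NuTRAP reporter. The reporter tags nuclei and ribosomes of Emx1-lineage cells, which are mostly excitatory forebrain neurons but also include neural progenitors and some astrocytes. Wheels were in the cages of exercised mice between postnatal days 21 and 41, sedentary mice were given none, and hippocampi were taken after that period. Nuclei were isolated in 3 arms: SIT, in which nuclei and RNA came from both hippocampi at once, and left separate and right separate, in which nuclei came from 1 hippocampus. The labels placed 60 samples in 18 groups, with 4 samples a group in SIT and 3 in each separate arm, and 20 of the samples were IgG controls that have no list here. The files analysed were 12 lists of peaks, which give 1 list to every combination of mark, condition and arm. A list holds the peaks of its group with no signal and no replicate. The read depth of each list is not given in these files, and no value below has an SD over animals. In such pooled material, a mark present in fewer cells and less of the mark in each cell cannot be told apart.

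Imprinting is set in the germline by DNA methylation of control regions, which leaves the copies from mother and father with different DNA methylation for life. In several clusters a long noncoding RNA made from one copy silences neighbouring genes on that copy, and Polycomb marks contribute to that silencing. Many imprinted genes limit or promote fetal growth, and a number of them are strongly expressed in brain. The peaks in these lists do not separate the parental copies, so a mark on one copy and a mark on both copies cannot be told apart.

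The lists differed in length. H4K8ac lists held 38136 (exercised) and 30358 (sedentary) peaks in SIT, 12168 and 36425 in left separate, and 13715 and 25159 in right separate. H3K27me3 lists held 25693 and 10279, 18262 and 14491, and 9899 and 21790 peaks in the same order. The longer list was thus the exercised one in SIT for both marks and the sedentary one in right separate for both, so list length moved with condition in each arm. The study's methods left out 4 exercised H4K8ac libraries for a high false discovery rate, 3 of the separate arms and 1 of SIT. In the RNA analysis the study also left out samples of both conditions as outliers. For the SIT peak sets the study gives fewer mice than the labels do. Which libraries entered each list is not stated, so lists of either mark and condition may rest on fewer samples than the labels give, and the low H4K8ac counts in the exercised separate lists cannot be told apart from that. Among marker genes of the cells purified, 9 of 10 excitatory neuron markers had an H4K8ac promoter peak in at least 1 list (against 28.9% of all genes), and 1, Prox1, had an H3K27me3 promoter peak (against 12.7%). None of 6 inhibitory neuron markers had an H4K8ac promoter peak and all 6 had an H3K27me3 promoter peak, although Dlx2 and Gad1 were assigned H4K8ac peaks elsewhere, and the excitatory markers Emx1 and Thy1 were assigned H3K27me3 peaks elsewhere. H4K8ac promoter peaks were also assigned to 4 of 6 astrocyte, 2 of 6 oligodendrocyte and 2 of 6 microglia and endothelial markers, and H3K27me3 promoter peaks to 3, 3 and 2 of them. The part of other cell types in the results below was not tested.

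Sequences of 7 start-site windows are given first, because most results below are about which mark lay over a start. Each window is the RefSeq sequence (GRCm38.p6) from 250 bases before to 50 after an annotated start, read 5′ to 3′ on the gene's strand. Asb4, which encodes an ankyrin-repeat subunit of a ubiquitin ligase, has 2 starts, and the window of the outer was reached by H4K8ac in 5 of 6 lists (chr6:5383136-5383435, plus strand) while that of the inner was under H3K27me3 in 6 of 6 (chr6:5390160-5390459, plus strand). Ascl2, a transcription factor needed for the placenta (chr7:142969215-142969514, minus strand), Dio3, the enzyme that inactivates thyroid hormone (chr12:110278980-110279279, plus strand), and Grb10, an adaptor of growth factor receptors (chr11:12037371-12037670, minus strand), had windows reached by H3K27me3 in 6 of 6 lists. In these sequences capitals mark each CG, the dinucleotide that carries DNA methylation.
Asb4, outer start: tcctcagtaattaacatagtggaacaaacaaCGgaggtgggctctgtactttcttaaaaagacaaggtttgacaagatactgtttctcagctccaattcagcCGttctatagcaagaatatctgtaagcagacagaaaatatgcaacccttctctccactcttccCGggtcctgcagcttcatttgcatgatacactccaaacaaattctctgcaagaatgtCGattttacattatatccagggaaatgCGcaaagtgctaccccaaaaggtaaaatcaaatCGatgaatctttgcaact
Asb4, inner start: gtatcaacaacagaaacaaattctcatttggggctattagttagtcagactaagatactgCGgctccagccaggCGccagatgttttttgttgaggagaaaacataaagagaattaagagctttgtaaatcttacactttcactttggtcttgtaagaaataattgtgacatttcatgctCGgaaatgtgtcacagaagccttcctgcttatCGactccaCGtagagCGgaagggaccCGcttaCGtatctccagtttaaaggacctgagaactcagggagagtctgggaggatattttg
Ascl2: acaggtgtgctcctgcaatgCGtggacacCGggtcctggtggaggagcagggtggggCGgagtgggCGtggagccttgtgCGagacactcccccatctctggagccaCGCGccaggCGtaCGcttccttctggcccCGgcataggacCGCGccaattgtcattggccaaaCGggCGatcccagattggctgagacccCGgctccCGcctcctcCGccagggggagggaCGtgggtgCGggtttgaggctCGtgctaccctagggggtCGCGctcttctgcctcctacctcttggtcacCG
Dio3: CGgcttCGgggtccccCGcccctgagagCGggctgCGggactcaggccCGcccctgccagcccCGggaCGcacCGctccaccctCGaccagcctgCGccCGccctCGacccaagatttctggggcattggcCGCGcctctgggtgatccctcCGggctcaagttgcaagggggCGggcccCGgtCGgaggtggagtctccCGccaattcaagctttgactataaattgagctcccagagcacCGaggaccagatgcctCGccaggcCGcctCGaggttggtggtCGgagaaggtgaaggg
Grb10: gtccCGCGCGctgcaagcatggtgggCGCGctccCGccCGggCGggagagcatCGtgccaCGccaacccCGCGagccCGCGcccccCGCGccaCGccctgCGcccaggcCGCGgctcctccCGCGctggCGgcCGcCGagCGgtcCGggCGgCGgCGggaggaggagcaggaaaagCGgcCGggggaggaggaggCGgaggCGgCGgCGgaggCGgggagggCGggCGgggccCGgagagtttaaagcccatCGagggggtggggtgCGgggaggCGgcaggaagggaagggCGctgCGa

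The Asb4 windows held 6 (outer) and 8 (inner) CG, against 23 in Ascl2, 25 in Dio3 and 45 in Grb10. Over all 32851 RefSeq windows the median was 7, over the 46 windows of 30 members it was 13, and over the 9 member windows reached by H3K27me3 in 6 of 6 lists it was 23. Both Asb4 windows were thus close to the median of all windows, and below the median of the member windows with H3K27me3 in each list.

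A pair of windows in germline methylated control regions that neither mark reached in any list is shown beside these. Mest, an endoplasmic reticulum hydrolase expressed from the paternal copy (chr6:30737800-30738099, plus strand), and Nnat, a small proteolipid of developing neurons (chr2:157559828-157560127, plus strand), are shown with capitals on TGCCGC or its reverse complement GCGGCA. This hexamer is bound by ZFP57 when its CG is methylated, and ZFP57 preserves imprints in the early embryo.
Mest: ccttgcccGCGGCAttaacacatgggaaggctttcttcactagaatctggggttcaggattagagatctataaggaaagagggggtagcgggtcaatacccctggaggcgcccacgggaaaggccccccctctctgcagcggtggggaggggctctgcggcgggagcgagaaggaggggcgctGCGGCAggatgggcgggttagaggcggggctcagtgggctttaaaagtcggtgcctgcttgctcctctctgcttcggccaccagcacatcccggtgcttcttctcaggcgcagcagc
Nnat: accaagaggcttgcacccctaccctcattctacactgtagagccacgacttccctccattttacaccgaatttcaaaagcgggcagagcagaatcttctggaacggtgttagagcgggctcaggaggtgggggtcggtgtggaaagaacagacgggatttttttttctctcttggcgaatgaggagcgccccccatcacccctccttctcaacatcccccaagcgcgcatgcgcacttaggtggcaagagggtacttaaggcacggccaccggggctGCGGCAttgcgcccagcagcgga

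On either strand, the hexamer was in 11.6% of all RefSeq windows (3813 of 32851) and in 11 of the 46 member windows (23.9%). Of 16 windows of members with a start in a germline methylated region, 6 (37.5%) held it, in Grb10, Mest, Nnat, Plagl1 and Snrpn. The Mest windows with the hexamer overlap and hold the same sites. Member windows also held more CG (median 13, against 7 in all windows), and the part of CG content was not tested. A match in letters is a description and not a bound site.

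**Figure D1:**
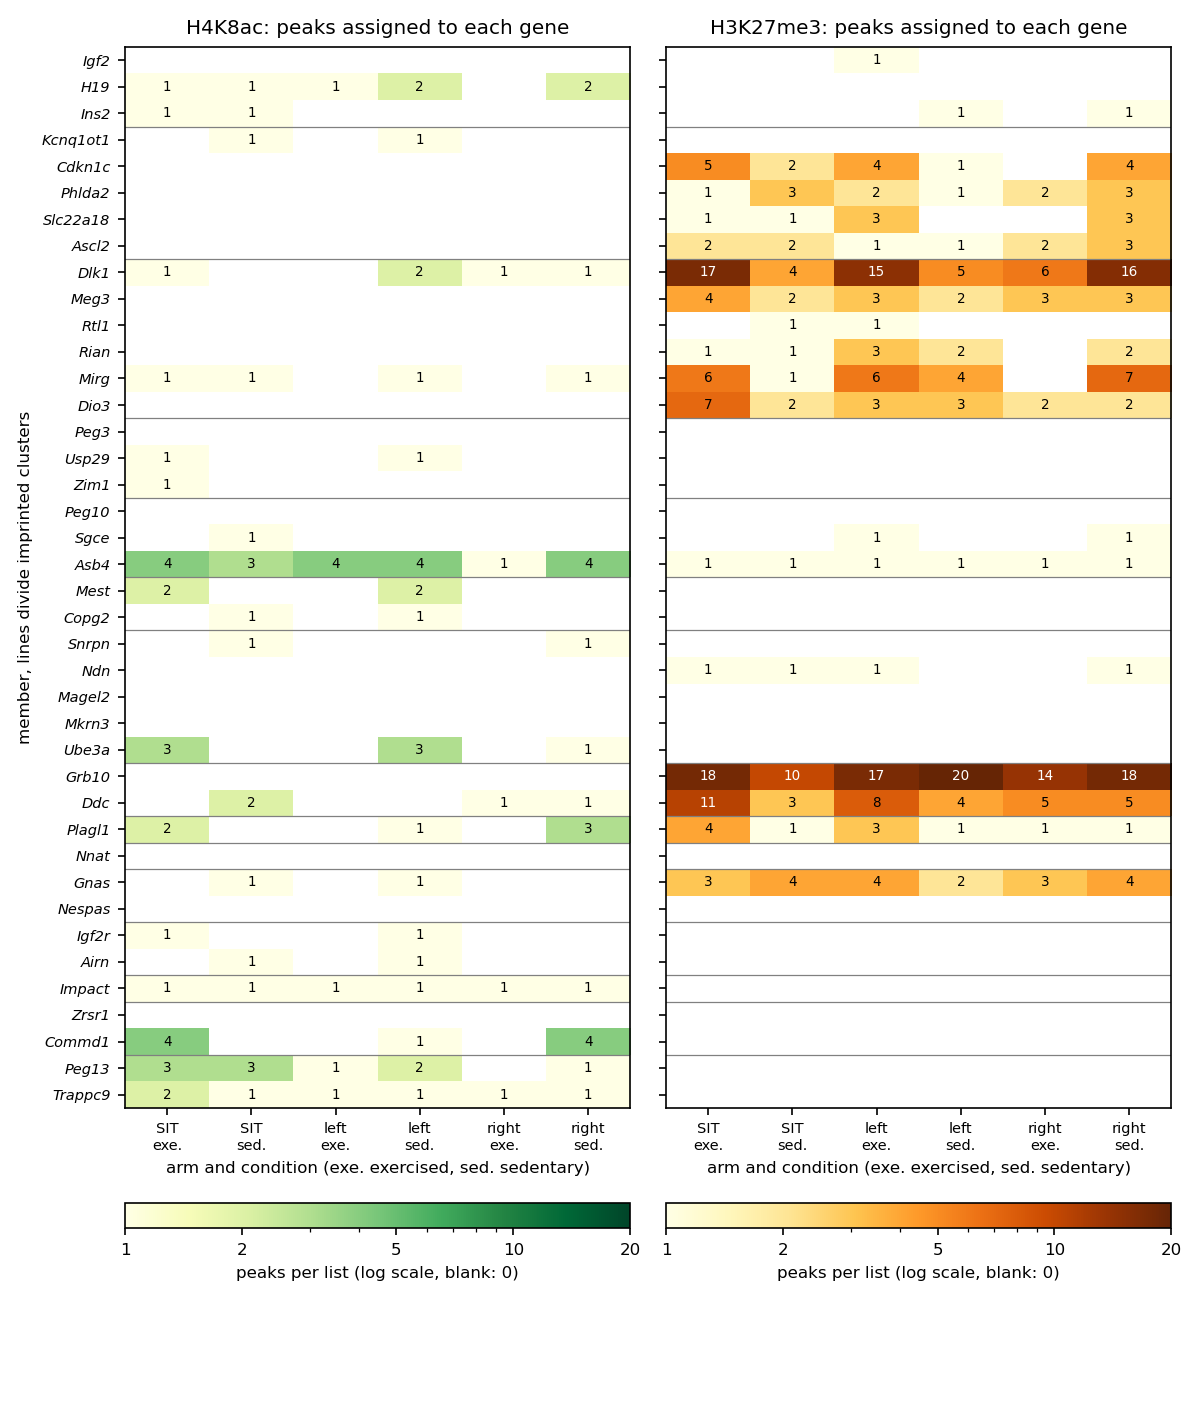
Number of peaks assigned to each of the 40 imprinted genes (rows, grey lines divide clusters) in the 6 lists of H4K8ac (left, green) and of H3K27me3 (right, brown), on a logarithmic colour scale with blank for 0. H3K27me3 peaks gathered in 10 genes listed in 6 of 6 lists, with up to 20 peaks (Grb10), while H4K8ac peaks were spread thinly, with 4 at most.

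H3K27me3 was assigned to more of the imprinted genes than to genes at large in each list. It was listed for 15 exercised and 16 sedentary members in SIT (37.5 and 40% of 40, against 19.1 and 11.4% of 31827 annotated genes of the same classes). The numbers were 18 and 14 in left separate (45 and 35%, against 15.4 and 13.8%), and 10 and 17 in right separate (25 and 42.5%, against 10.4 and 17.8%). The members' share was therefore above that of all genes in 6 of 6 lists. Members were longer than the genes they are set against (median 26069 bp against 12925 bp), and the part of length in these shares was not tested.

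H4K8ac did not separate the imprinted genes from other genes in this way. It was listed for 15 exercised and 14 sedentary members in SIT (37.5 and 35%, against 31.7 and 25.6% of all genes), for 5 and 17 in left separate (12.5 and 42.5%, against 15.2 and 30.2%), and for 5 and 12 in right separate (12.5 and 30%, against 17.2 and 24.6%). The members' share was above the share of all genes in 4 lists and below it in the exercised lists of both separate arms, which were the shortest H4K8ac lists.

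The difference between the marks was wider at start sites. An annotated start of 16 exercised and 12 sedentary members lay inside an H3K27me3 peak in SIT (40 and 30%, against 11.7 and 8.0% of all genes), of 13 and 11 members in left separate (32.5 and 27.5%, against 9.12 and 8.20%), and of 10 and 13 in right separate (25 and 32.5%, against 5.63 and 10.9%). For H4K8ac the numbers were 6 and 1 in SIT (15 and 2.5%, against 20.1 and 9.92%), 2 and 3 in left separate (5 and 7.5%, against 6.42 and 15.5%), and 1 and 4 in right separate (2.5 and 10%, against 7.37 and 13.4%). The share of members with at least 1 start under H3K27me3 was thus above that of all genes in 6 of 6 lists, and the share with one under H4K8ac was below it in 6 of 6. Of 39 further imprinted genes described below, 38.5% had a start under H4K8ac in at least 1 list, against 28.3% of all genes. The members' share by that measure was 17.5%, so the lower share was not seen in that other set. Genes differ in their number of annotated starts, and the part of that number was not tested.

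**Figure D2:**
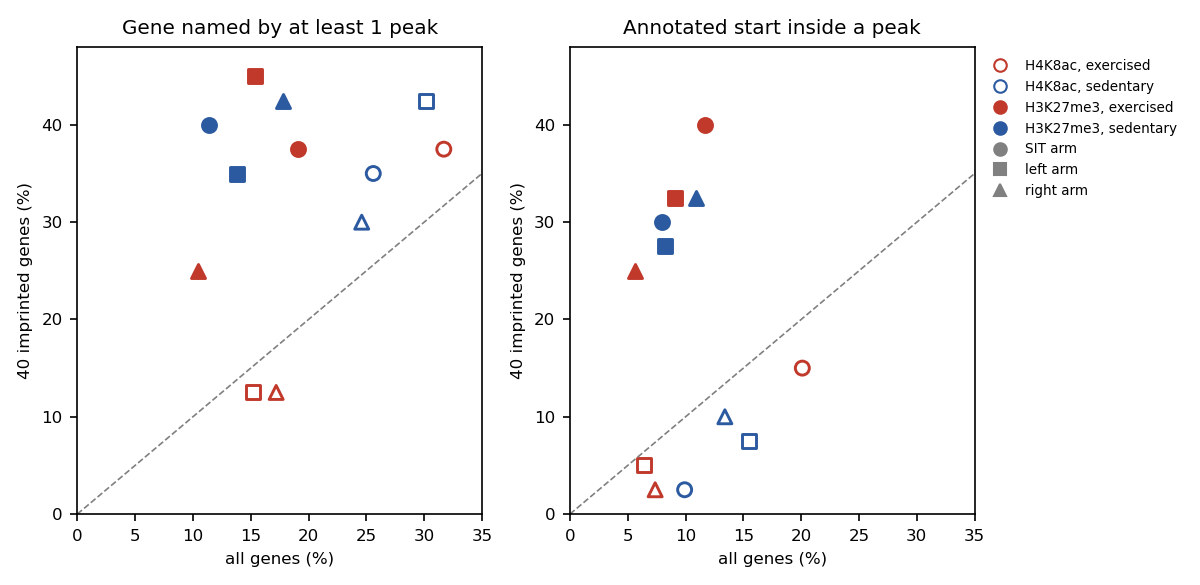
Percent of the 40 imprinted genes (vertical axis) against percent of all annotated genes (horizontal axis) with at least 1 assigned peak (left) or an annotated start inside a peak (right), 1 point for each of 12 lists. Filled H3K27me3 points lie above the dashed line of equal shares in both panels, and open H4K8ac points lie on both sides of it on the left and below it on the right.

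Over gene bodies with 5 kb flanks, H3K27me3 peaks covered 11.4 (exercised) and 6.56% (sedentary) of the members' bases in SIT, 9.25 and 6.48% in left separate, and 4.18 and 10% in right separate. These shares were 2.29 to 2.76 times the share of the genome under the same list. H4K8ac covered 0.333 to 1.89% of the members' bases, which was 0.37 to 0.766 times the genome's share. Of 360 H3K27me3 member peaks, 31.7% were promoter peaks (95% Wilson interval 27.1 to 36.6%), against 20.3% of all H3K27me3 peaks. Of 107 H4K8ac member peaks, 28.0% were (20.4 to 37.2%), against 23.5% of all H4K8ac peaks. Peaks within a gene share their source, so these intervals cover counting error only.

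Some clusters had H3K27me3 in their spans and others had none in any list. The spans ran from 12.45 kb (Nnat) to 3201 kb (Snrpn-Ube3a), and no share of like spans of the genome was counted. H3K27me3 peaks reached 8 of the 15 clusters, and 7 of them in 6 of 6 lists: Igf2-H19, Kcnq1ot1, Dlk1-Dio3, Peg10-Sgce, Grb10-Ddc, Plagl1 and Gnas. The eighth, Snrpn-Ube3a, had them in 4 lists. In Peg10-Sgce the region common to the 6 lists lay over Asb4, while no H3K27me3 lay within 5 kb of Peg10, and Sgce had it in 2 lists. No list placed a base of H3K27me3 in the Peg3, Mest, Nnat, Igf2r-Airn, Impact, Zrsr1-Commd1 or Peg13-Trappc9 spans. H4K8ac reached all 15 clusters in at least 1 list, and 4 of them in 6 of 6. The bases common to all 6 lists came to 123 kb in 30 regions for H3K27me3 and to 3.11 kb in 3 regions for H4K8ac, of which the region at the start of Impact was the only one over a member. Bases common to 6 lists were not counted over the whole genome. There, too, the exercised and sedentary lists of an arm shared less for H4K8ac (0.2 to 0.251 of the bases under either) than for H3K27me3 (0.33 to 0.536).

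**Figure D3:**
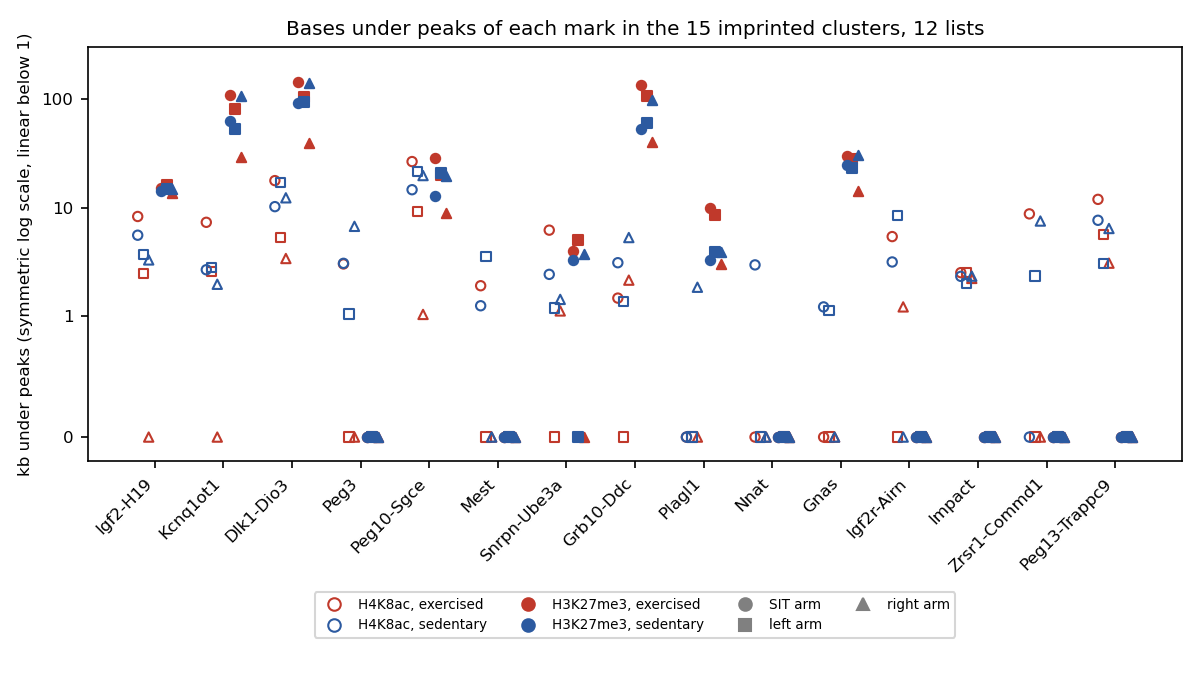
Kilobases under peaks within the span of each imprinted cluster (members and 5 kb on either side), on a symmetric logarithmic scale that is linear below 1, for H4K8ac (open) and H3K27me3 (filled), with colour for condition and shape for arm. Filled points reach 144 kb in Dlk1-Dio3 and 134 kb in Grb10-Ddc and lie at 0 in 7 clusters.

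The Dlk1-Dio3 cluster on chromosome 12 had the most kilobases under H3K27me3 in 4 of 6 lists, and Grb10-Ddc had more in the exercised lists of both separate arms. As a share of the span, H3K27me3 reached 57.2% in Grb10-Ddc, 40.2% in Gnas and 17.2% in the longer Dlk1-Dio3. In the Dlk1-Dio3 span of 838.3 kb, peaks covered 144 (exercised) and 91.4 kb (sedentary) in SIT, 103 and 93.8 kb in left separate, and 39.2 and 139 kb in right separate, and 35.5 kb was covered in all 6 lists. Dlk1, a Notch-like ligand expressed from the paternal copy, had 17 and 4, 15 and 5, and 6 and 16 H3K27me3 peaks in the same order, and each of its 9 annotated starts was inside a peak in 6 of 6 lists. A region of 11121 bp over Dlk1 was common to the 6 lists (chr12:109449646-109460766). Its H4K8ac peaks were few and distant: 1 in exercised SIT, 2 and 1 in the sedentary left and right lists and 1 in the exercised right list, and 4 of these 5 lay 26.9 to 27.7 kb upstream of the gene.

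Meg3, a long noncoding RNA expressed from the maternal copy, had 4 and 2, 3 and 2, and 3 and 3 H3K27me3 peaks, but its starts were inside a peak only in the exercised SIT and sedentary right lists. Most of its peaks lay in the interval between Dlk1 and Meg3, up to 35.4 kb upstream of the Meg3 start. No H4K8ac peak was assigned to Meg3, Rtl1, Rian or Dio3 in any list. Mirg, a microRNA host gene, had H3K27me3 peaks in 5 lists, but these lay 35.8 to 170 kb beyond the assigned start, and none was within 5 kb of the gene. Mirg had 1 H4K8ac peak in 4 lists, of 676 and 1429 bp in SIT, 1018 bp in sedentary left and 1261 bp in sedentary right, 0.541 to 2.41 kb from the assigned start. Rian, another maternally expressed noncoding RNA of the cluster, had 1 and 1, 3 and 2, and 0 and 2 H3K27me3 peaks, all annotated as promoter peaks.

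In the Kcnq1ot1 domain on chromosome 7, H3K27me3 covered 109 and 62 kb in SIT, 81.2 and 52.3 kb in left separate and 29.5 and 107 kb in right separate. Phlda2, which limits placental growth, had 17931 and 15921 bp under assigned H3K27me3 peaks in SIT, 16159 and 15107 bp in left separate, and 7563 and 16535 bp in right separate, with its 3 starts covered each time. Ascl2 had 12676 and 8368, 7757 and 4539, and 4504 and 18774 bp, also with its starts covered in 6 of 6. Both were lowest in the exercised right list, the shortest of the H3K27me3 lists. Cdkn1c, an inhibitor of cyclin-dependent kinases, was listed in 5 lists, and a start of it was covered in 2. Slc22a18, a transporter, was listed in 4, and H3K27me3 lay within 5 kb of it in 6. Kcnq1ot1, the noncoding RNA that silences the domain from the paternal copy, had no H3K27me3 peak over its start in any list, and its 2 H4K8ac peaks lay 3.43 and 3.56 kb upstream in the sedentary SIT and left lists.

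Grb10 was the member with the most H3K27me3 peaks. It had 18 and 10 in SIT, 17 and 20 in left separate, and 14 and 18 in right separate, and they summed to 227194 and 112500, 145076 and 124635, and 94889 and 163347 bp. The widest, of 73604 bp, was in the exercised SIT list. Grb10 is expressed from the paternal copy in neurons and from the maternal copy in most other tissues, and no H4K8ac peak was assigned to it or lay within 5 kb of it in any list. Its neighbour Ddc, the enzyme that makes dopamine from L-DOPA, had 11 and 3, 8 and 4, and 5 and 5 H3K27me3 peaks, and H4K8ac in 5 lists within 5 kb of the gene. Plagl1, a zinc-finger transcription factor, had 2995 bp of H3K27me3 common to the 6 lists inside the gene (chr10:13106496-13109490), while the RefSeq window of its methylated start had neither mark.

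At Gnas, which encodes the stimulatory G protein subunit Gs alpha from one of several starts, H3K27me3 covered 36.6 and 29.5% of the gene and its flanks in SIT, 36.6 and 29.4% in left separate, and 16.2 and 37.8% in right separate. The RefSeq window of its upstream start (chr2:174284070-174284369) was under H3K27me3 in 5 of 6 lists, and the 3 downstream windows (chr2:174327499-174330055) were under neither mark in any list. Nespas, the antisense RNA of this locus, was assigned no peak, yet H3K27me3 covered 38.5 to 90.8% of it and its flanks, and 1 or 3 of its 3 annotated starts, in 6 of 6 lists.

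H4K8ac at a start in 6 of 6 lists was found for 1 member (the share of all genes was not counted). This was Impact, an inhibitor of the kinase GCN2 that is abundant in neurons and expressed from the paternal copy. Its start peak was 2516 and 2335 bp wide in SIT, 2517 and 1994 bp in left separate, and 2228 and 2339 bp in right separate. The widths lay close together although the lists differed in length, and no H3K27me3 peak came within 5 kb of the gene. Trappc9, a subunit of a vesicle-tethering complex, was listed for H4K8ac in 6 of 6 as well, with peaks in an intron 32.2 to 49.7 kb from the start in 5 lists and 6.52 kb upstream of the gene in sedentary left. Peg13, the noncoding RNA inside Trappc9, was listed in 5 and had a promoter peak only in exercised SIT, of 1131 bp. H19, the noncoding RNA that is the counterpart of Igf2, had H4K8ac in 5 lists, in each case 5.78 to 9.93 kb upstream of its start.

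The other members with H4K8ac over a start were Ube3a, a ubiquitin ligase expressed from the maternal copy in neurons (exercised SIT and sedentary left), Commd1, a regulator of copper and NF-kappaB (exercised SIT and sedentary right), Igf2r, a receptor that clears IGF2 (exercised SIT), Zim1, a zinc-finger protein (exercised SIT), and Plagl1 (sedentary right). These and Impact and Asb4 made 7 members with a start under H4K8ac in at least 1 list (17.5%, against 28.3% of all genes), and 16 had one under H3K27me3 (40%, against 13.5%). By assigned name, 22 members were listed for H4K8ac at least once (55%, against 39.9%) and 19 for H3K27me3 (47.5%, against 21.8%). Of 15 members with a start in a germline methylated region, 2 had a start under H4K8ac and 3 under H3K27me3 in at least 1 list, and of the 25 others 5 and 13. Among 24 members expressed mainly from the paternal copy, 2 and 8 had a start under H4K8ac and H3K27me3, and among 15 expressed from the maternal copy 5 and 7. Further members had H4K8ac away from their starts, by assigned name in 1 or 2 lists each. Usp29, a deubiquitinase of the Peg3 cluster, was assigned 1 intronic peak in exercised SIT and 1 in sedentary left, of 985 and 1050 bp, and peaks lay within 5 kb of it in 4 lists. Mest was assigned 2 peaks in each of the same lists, 5.47 to 62.1 kb from its starts. Sgce, the epsilon-sarcoglycan that is altered in myoclonus dystonia, had 1 intronic H4K8ac peak of 1139 bp in sedentary SIT and intronic H3K27me3 peaks in exercised left (3486 bp) and sedentary right (1868 bp). Ins2 had H4K8ac 3.2 and 3.46 kb from its start in the exercised and sedentary SIT lists. None of these peaks covered a start of its gene.

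No peak of either mark was assigned to Peg3, Peg10, Magel2, Mkrn3, Nnat, Nespas or Zrsr1, some of which are well expressed in neurons. By place, H4K8ac peaks named for Blcap covered 23.9% of Nnat and its flanks in sedentary SIT, and H3K27me3 covered Nespas as given above. No peak lay within 5 kb of Peg3, Peg10, Magel2, Mkrn3 or Zrsr1.

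Within 5 kb of the gene and over the 6 lists of each mark, 14 members had H4K8ac alone (35%, against 43.4% of all genes), 12 had H3K27me3 alone (30%, against 15.5%), 6 had both (15%, against 9.96%) and 8 had neither (20%, against 31.2%). Both marks in the same arm and condition were found for 2 exercised and 4 sedentary members in SIT (5 and 10% of 40, against 6.76 and 2.87% of all genes), for 1 and 3 in left separate (2.5 and 7.5%, against 1.83 and 4.09%), and for 1 and 3 in right separate (2.5 and 7.5%, against 1.52 and 4.46%). These were Asb4 and Ddc in 5 pairs of lists each, Gnas in 2, and Kcnq1ot1 and Plagl1 in 1 each. The marks lay apart even there: no base within 5 kb of a member was under both marks in any pair of lists. Such overlap was rare in the whole genome too, at 0.000364 to 0.0112% of its bases, so its absence from the members is near the background. The gap from an H4K8ac peak to the nearest H3K27me3 peak was 39727 bp at Kcnq1ot1 and 44325 bp at Plagl1, and it was shorter at Asb4, Ddc and Gnas.

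Asb4 had both marks within one gene in 5 of 6 pairs of lists. Its H3K27me3 was 1 peak in each list, of 12647 and 10225 bp in SIT, 12525 and 12046 bp in left separate, and 8914 and 11986 bp in right separate, and 8914 bp were common to the 6 (chr6:5387152-5396065). That block held the inner start of the sequences above. H4K8ac lay over or just before the outer start, in peaks of 2326 and 1035 bp in SIT, 2416 and 2401 bp in left separate and 4376 bp in sedentary right, and again in an intron beyond the block. The smallest gap between the marks was 917 bp, in exercised left. The exercised right list had no H4K8ac over Asb4, and the 1 peak it assigned to the gene, of 1271 bp, lay 51.9 kb away.

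**Figure D4:**
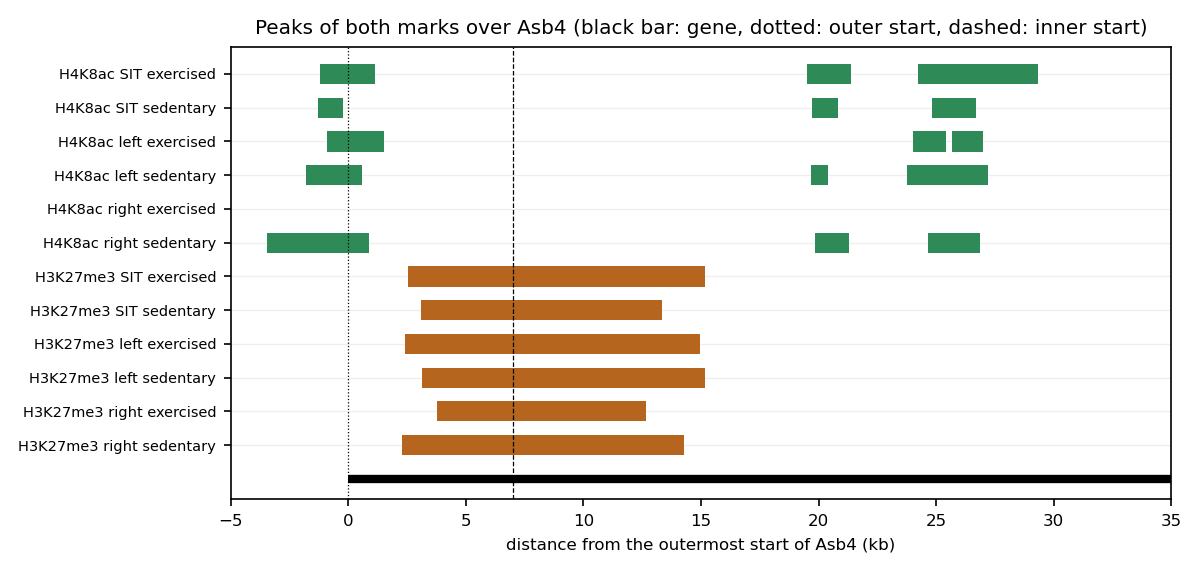
Peaks of H4K8ac (green) and H3K27me3 (brown) over Asb4 in the 12 lists, by distance in kb from the outer start, with the gene as a black bar and both starts as vertical lines. One brown block of 8914 to 12647 bp covers the inner start in each H3K27me3 list, and green peaks lie on both sides of it in 5 of the 6 H4K8ac lists.

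At Gnas the H4K8ac peaks of the sedentary SIT and left lists, 1218 and 1129 bp wide, began 1227 and 233 bp after an H3K27me3 peak ended. At Ddc 10 H4K8ac peaks lay 675 to 6588 bp from the nearest H3K27me3 peak. Dlk1 and Mirg were assigned both marks in the same arm and condition 4 times each, but these peaks were not within 5 kb of the same gene.

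A peak carries 1 gene name in the tables, and in dense imprinted clusters that name hid several members. Of 229 H3K27me3 peaks within 5 kb of a member (a peak near several members is counted for each), 28.4% were assigned to another gene, and of 112 H4K8ac peaks 42.0% were. The same share for peaks near genes at large was not counted. Igf2, the fetal growth factor, was listed for H3K27me3 once, by a peak of 2435 bp 18.8 kb away in exercised left. Yet a block of 15153 and 14211 bp in SIT, 13739 and 14654 bp in left separate, and 13620 and 14868 bp in right separate covered 8 or 9 of its 9 annotated starts. All 6 blocks were named for Igf2os, the antisense transcript, and 12666 bp were common to them (chr7:142653252-142665917). Dio3 starts were inside an H3K27me3 peak in 6 of 6 lists, and 4 of these peaks were named for the microRNA gene Mir1247.

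Rtl1, a retrotransposon-derived gene expressed from the paternal copy, was the single member lost with exercise from H3K27me3 in SIT by assigned name. The study also names Rtl1 from these same samples, so its appearance here is not independent. The sedentary SIT peak of 10005 bp was named Rtl1, and the exercised SIT peak over the same place, of 21532 bp, was named Mir1188. The annotated start of Rtl1 was inside both. Over the gene and 5 kb flanks H3K27me3 covered 44.2 (exercised) and 37.5% (sedentary) in SIT, 18.5 and 14.7% in left separate, and 8.16 and 40.2% in right separate. By place, then, Rtl1 was not lost in SIT, and coverage there was higher in the exercised list.

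**Figure D5:**
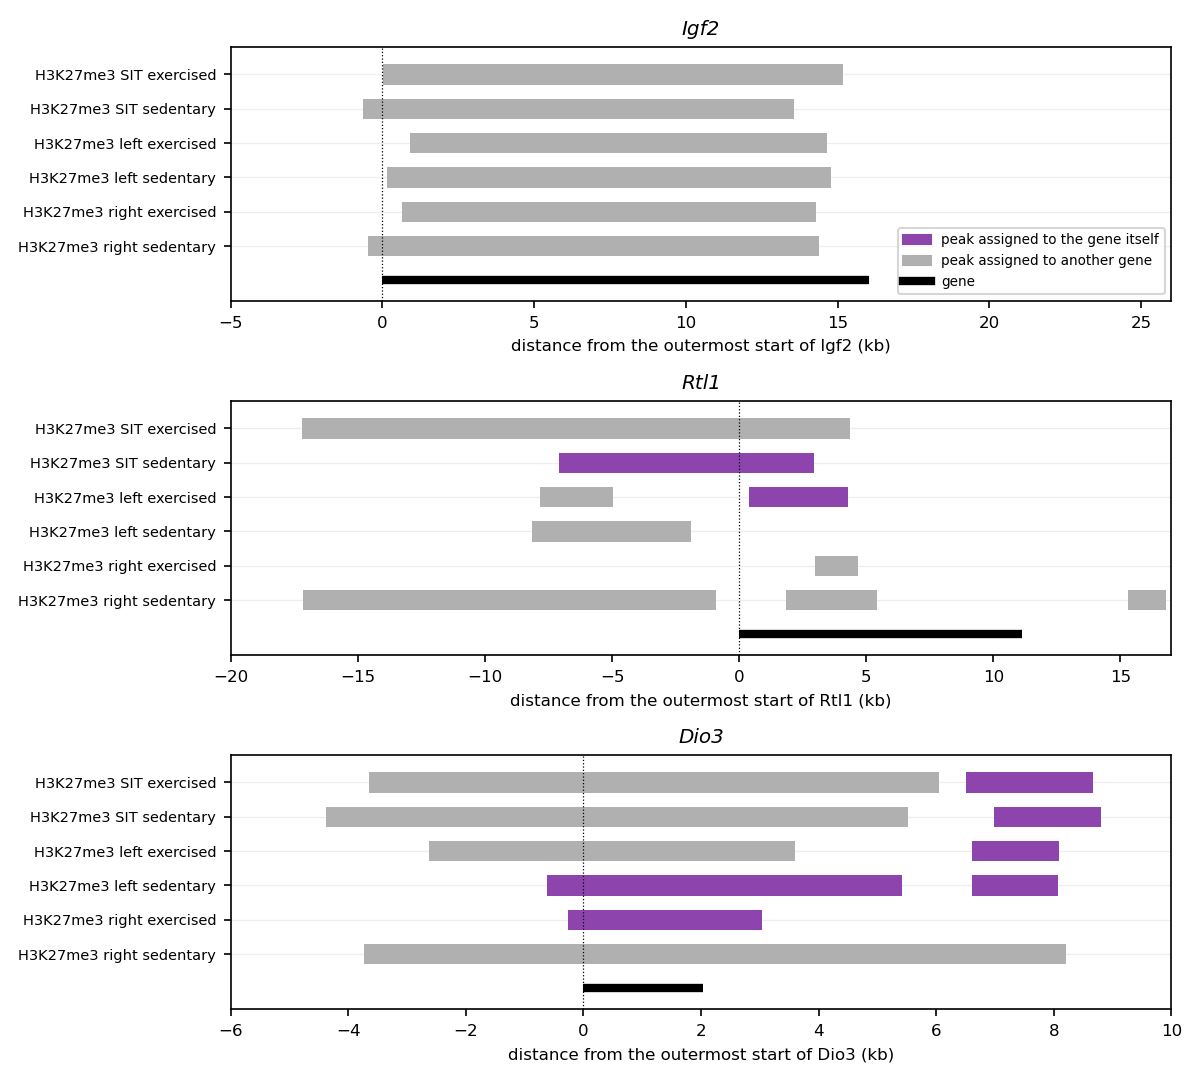
H3K27me3 peaks over Igf2, Rtl1 and Dio3 in the 6 lists, by distance in kb from the outermost annotated start, in purple where the peak was assigned to the gene itself and in grey where it was assigned to another gene. Grey blocks cover Igf2 in all 6 lists, and in SIT both the grey exercised and the purple sedentary peak cross the start of Rtl1.

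Exercise was compared with sedentary housing within each arm, by members in 1 list and not the other. For H3K27me3 in SIT, 15 of 16 listed members were shared (93.8%, against 57.5% of all listed genes), none was gained (against 41.4%) and 1 was lost (6.25%, against 1.02%). In left separate 13 of 19 were shared (68.4%, against 72.4%), 5 were gained (26.3%, against 18.5%) and 1 was lost (5.26%, against 9.13%). In right separate 10 of 17 were shared (58.8%, against 53.3%), none was gained (against 3.12%) and 7 were lost (41.2%, against 43.6%). The 10 members shared in all 3 arms were Phlda2, Ascl2, Dlk1, Meg3, Dio3, Asb4, Grb10, Ddc, Plagl1 and Gnas, of 19 ever listed (52.6%, against 38% of all genes ever listed for H3K27me3). By assigned name, the members' shared share was thus well above that of all genes in SIT and near it in both separate arms. By any peak within 5 kb, 2 members (Cdkn1c and Meg3) were gained in SIT and none was lost. In left separate 3 were gained and 1 was lost by this measure, and in right separate none was gained and 4 were lost. Shares of all genes by place were not counted.

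For H4K8ac in SIT, 7 of 22 listed members were shared (31.8%, against 62.4% of all listed genes), 8 were gained (36.4%, against 27.5%) and 7 were lost (31.8%, against 10.1%). The gained members were Dlk1, Usp29, Zim1, Mest, Ube3a, Plagl1, Igf2r and Commd1. Of these 8, 7 were lost in left separate, where 51.9% of all listed genes were lost. The share lost there among all genes gained in SIT was not counted. These gains are by assigned name. By any peak within 5 kb, 5 members were gained in SIT (Zim1, Ube3a, Igf2r, Commd1 and Peg13) and 4 were lost (Kcnq1ot1, Sgce, Nnat and Gnas). For this measure the shares of all genes were not counted. In left separate 5 of 17 were shared (29.4%, against 44.5%), none was gained (against 3.58%) and 12 were lost (70.6%, against 51.9%). In right separate 5 of 12 were shared (41.7%, against 54.1%), none was gained (against 9.14%) and 7 were lost (58.3%, against 36.7%). Asb4, Impact and Trappc9 were shared in all 3 arms, 3 of 22 members ever listed (13.6%, against 24.1% of all genes ever listed for H4K8ac).

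The number of members listed in exercised minus sedentary lists was 1, -12 and -7 for H4K8ac in SIT, left and right separate (mean -6, SD 6.56 over 3 arms, p = 0.5, exact two-sided sign-flip permutation test). For H3K27me3 it was -1, 4 and -7 (mean -1.33, SD 5.51, p = 0.75, the same exact test). The smallest p that 3 arms allow is 0.25, and for both marks the arms went in both directions. With the longer list of each arm reduced to its widest peaks at the number of the shorter list, the H4K8ac differences were -3, 0 and -3, so that the direction in SIT turned and the difference in left separate was gone. The H4K8ac mean kept its sign but was -1 with promoter peaks alone and -2 with equal numbers. The H3K27me3 difference in SIT turned to 3 with promoter peaks alone and 2 with any peak within 5 kb, and its mean turned to 1 with promoter peaks alone and 1.5 without the right separate arm.

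The bases under H3K27me3 within 5 kb of members moved with those of the whole lists. They were 298 kb exercised and 171 kb sedentary in SIT (ratio 1.74, against 1.88 over the genome), 241 and 169 kb in left separate (1.43, against 1.25), and 109 and 261 kb in right separate (0.418, against 0.36). For H4K8ac they were 49.2 and 34 kb in SIT (1.45, against 1.73), 13.3 and 33.9 kb in left separate (0.394, against 0.391), and 8.69 and 39.4 kb in right separate (0.22, against 0.437). The largest departure from the genome's ratio was H4K8ac in right separate, where the members' ratio was lower, and with 1 list a group it has no test.

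No member was gained or lost in the same direction in 3 arms for either mark. For H4K8ac, 6 of 22 members ever listed were lost in 2 arms and not gained in the third by assigned name (27.3%, against 10.9% of all genes ever listed): Kcnq1ot1, Copg2, Gnas and Airn in SIT and left separate, Snrpn in SIT and right separate, and Mirg in left and right separate. Among 27 further imprinted genes ever listed, described below, 2 were lost so (7.41%). By any peak within 5 kb, Kcnq1ot1, Gnas and Mirg were still lost in 2 arms, while Copg2 and Airn were shared in SIT, Airn was gained in right separate, and Snrpn had no peak in any arm. Usp29 was lost in both separate arms by this measure, for which the share of all genes was not counted. In 4 of the 6 members lost by name the sedentary peaks of both arms overlapped. These were Gnas (527 bp shared), Kcnq1ot1 (778 bp), Airn, the noncoding RNA that silences Igf2r (1032 bp), and Mirg (789 bp). At Gnas, Kcnq1ot1 and Airn no exercised list had an H4K8ac peak over those places in any arm, while at Mirg the exercised SIT list did. The peaks were 911 to 1905 bp wide. Copg2, a coatomer subunit, and Snrpn, a splicing protein, had peaks 9379 and 229042 bp apart in the arms concerned, and those of Snrpn lay 251 and 481 kb upstream of its assigned start.

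For H3K27me3, Ins2, the insulin 2 gene, was lost in 2 arms, the 1 of 19 members ever listed to be so (5.26%, against 1.61% of all genes ever listed), by peaks 9158 bp apart that lay 57.3 and 68.9 kb from its start. Neither Ins2 peak was within 5 kb of the gene. By assigned name, Slc22a18, Rtl1, Sgce and Ndn were gained in 1 arm and lost in another. By any peak within 5 kb, Sgce, Cdkn1c and Meg3 were, while Slc22a18 and Rtl1 were shared in all 3 arms. The share of all genes that went both ways was not counted. Ndn, a MAGE-family protein of neurons, was listed in 4 H3K27me3 lists by a peak 119 to 121 kb upstream, and no peak of either mark lay within 5 kb of it.

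Other imprinted genes and the factors that maintain imprints give the wider setting. Of 40 further imprinted genes, 21 were listed for H3K27me3 in at least 1 list and 14 in 6 of 6, among them Kcnq1 and Th, neighbours of members, and 27 and 9 were listed for H4K8ac. Of those ever listed, that is 66.7% in 6 of 6 for H3K27me3 (against 38% of all genes ever listed) and 33.3% for H4K8ac (against 24.1%). Of the 39 in the gene classes of the background, the shares listed in at least 1 list were 53.8% for H3K27me3 (against 21.8% of all genes) and 69.2% for H4K8ac (against 39.9%). A start of 18 of the 39 lay under H3K27me3 in at least 1 list (46.2%, against 13.5%). For H4K8ac it was a start of 15 (38.5%, against 28.3%). With exercise, 4 of 20 of them listed in SIT were gained for H3K27me3 (20%, against 41.4% of all listed genes) and 0 lost, 1 of 20 was gained (5%, against 18.5%) and 2 lost (10%, against 9.13%) in left separate, and 0 of 19 were gained and 5 lost (26.3%, against 43.6%) in right separate. For H4K8ac, 5 of 23 were gained (21.7%, against 27.5%) and 4 lost (17.4%, against 10.1%) in SIT, 0 of 20 gained and 9 lost (45%, against 51.9%) in left separate, and 2 of 19 gained (10.5%, against 9.14%) and 6 lost (31.6%, against 36.7%) in right separate. Of 18 genes of imprint maintenance, 10 were listed for H4K8ac in at least 1 list (55.6%, against 39.9% of all genes), and 7 had a start under it (38.9%, against 28.3%), including Zfp57, Zfp445, Setdb1 and Dnmt1. Dppa3, a germline and early embryo factor, was the 1 gene of this list with H3K27me3 over a start (5.56%, against 13.5%).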

How the data were processed

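H4K8ac and H3K27me3 CUT&RUN-seq libraries were taken from exercised and sedentary Emx1-NuTRAP mice in 3 arms, grouped by the labels. Per the methods and the submitters' processing notes, the authors checked reads with FastQC 0.11.9, aligned them with Bowtie2 2.4.1 (mm10, GRCm38), called peaks with SEACR (stringent, threshold 0.01), left out libraries with a false discovery rate above 0.1, and annotated peaks with ChIPseeker 1.8.6 (promoter within 3 kb). The deposited tables hold, per the file headers, peak coordinates, widths, distances and gene names. They hold no count, signal or score, and how libraries of a group were combined is not stated. Coordinates were used as listed, and 1 listed start is 0, so starts may be 0-based.

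Peaks were matched by symbol, and by place to GENCODE M21 genes (99.0% of the assigned transcripts were found in it). Overlap meant 1 bp. Members with their named values were those in the most lists, those gained or lost in at least 2 arms with no opposite, and those with both marks. The members and gene lists were chosen with earlier results of these data known. Arms were compared by an exact sign-flip test, and interval functions were tested on simulated data. Alternatives were peak class, place, peak number, width, list length, starts, flanks and overlap. Python 3.11.15, numpy 2.4.6, pandas 2.3.3, statsmodels 0.14.6 and matplotlib 3.10.9 were used.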

Additional observations from a re-analysis of the deposited data

Results flagged for a closer look

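The difference in the number of imprinted genes listed, exercised minus sedentary, went in opposite directions between arms, which was seen in 1 pair of lists per arm and was not tested. For H4K8ac it was 1 in SIT, -12 in left separate and -7 in right separate. For H3K27me3 it was -1 in SIT, 4 in left separate and -7 in right separate. The exercised list was the longer one in SIT for both marks and in left separate for H3K27me3, and the part of list length was not tested beyond the alternative with equal numbers of peaks.

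Single members also went both ways by assigned name. For H4K8ac, 7 members (Dlk1, Usp29, Mest, Ube3a, Plagl1, Igf2r and Commd1) were in the exercised list alone in 1 arm and in the sedentary list alone in another. For H3K27me3, 4 members (Slc22a18, Rtl1, Sgce and Ndn) were. By any peak within 5 kb the members were others in part, 4 for H4K8ac (Ube3a, Igf2r, Airn and Commd1) and 3 for H3K27me3 (Cdkn1c, Meg3 and Sgce). The shares of all genes that went both ways, by name or by place, were not counted, and these differences between arms were not tested.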

How the results depend on the processing

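Summed over 6 lists, members listed for H4K8ac (68) fell to 27 with promoter peaks alone, 21 with at least 2 peaks and 36 with the widest 50% of each list, and those for H3K27me3 (90) to 59 with at least 2 peaks. The mean H4K8ac difference over arms (-6) kept its sign but shrank to -1 with promoter peaks, -1.67 with at least 2 peaks, and -2 with equal numbers of peaks and with the widest 50%. The mean H3K27me3 difference over arms (-1.33) was 1 with promoter peaks, 0.333 with at least 2 peaks, 1.33 with the widest 50% and 1.5 without the right separate arm. Without 1 arm at a time the mean ranged from -9.5 to -3 for H4K8ac and from -4 to 1.5 for H3K27me3. The H3K27me3 difference in SIT (-1) was 3 with promoter peaks, 2 with any peak within 5 kb, 1 with at least 2 peaks and 5 with the widest 50%. The H4K8ac difference in SIT (1) was 4 with promoter peaks and with at least 2 peaks, 2 with the widest 50% and -3 with equal numbers of peaks. In left separate (-12) the H4K8ac difference was -3 with promoter peaks, -5 with at least 2 peaks, 0 with equal numbers and -4 with the widest 50%. H4K8ac starts inside peaks (17) were 28 within 3 kb. Members with both marks (14 over 6 pairs) were 22 by assigned name, 8 within 3 kb of a start and 0 with an overlap of 50% of the narrower peak. The H3K27me3 promoter share (31.7%) was 42.7% of bases. These alternatives change which peaks are counted, and the cause of each change was not tested.

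No paired analysis was possible because the lists carry no replicate numbers, and replicates were not left out in turn for the same reason. Depth per list is not given in these files, so a member in no list was not detected at these thresholds, which does not show that the mark was absent.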
